A study of Mus musculus with 9 samples.

Results

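The miR-181 family was followed across small RNA libraries of whole mouse kidneys at embryonic day 16.5. Its 7 members were taken by name from the deposited files: the 5p strands mmu-miR-181a-5p, mmu-miR-181b-5p, mmu-miR-181c-5p and mmu-miR-181d-5p, and the 3p strands mmu-miR-181a-1-3p, mmu-miR-181a-2-3p and mmu-miR-181c-3p (mmu, mouse, is left off below), out of 1607 known mouse miRNA names. The groups were DROSHA knockout, transgenic for DROSHA-E1147K, and wild-type control, with 3 libraries in each. DROSHA, an RNase III enzyme of the nucleus, cuts hairpin precursors out of primary miRNA transcripts, and the study concerned its loss or mutation in the developing kidney and Wilms tumor. The labels name neither the mouse lines, the promoter behind the transgene, nor the cells in which Drosha was deleted, and whether each library is a different embryo is unstated. The p-values therefore reflect library-to-library spread that could be technical.

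The miR-181 miRNAs are made from hairpins in which the 5p arm is the usual guide strand, the strand that the Argonaute protein keeps and uses to find target mRNAs through its seed. The family is best known from the immune system, where miR-181a sets the sensitivity of developing mouse T cells to antigen, and from the endothelium, where miR-181b restrains inflammatory NF-κB signalling. It is also expressed in many other tissues, and in whole kidney RNA a lower level can mean fewer cells that hold the miRNA or less of it per cell, which cannot be told apart here.

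The mature sequences are shown because 4 of the names share a seed and differ by a few bases, which bears on how reads were divided among them. They come from RefSeq (GRCm38.p6, the assembly called mm10), where all 7 names were matched, and run 5′ to 3′ with the seed, bases 2 to 8, in capitals.
miR-181a-5p: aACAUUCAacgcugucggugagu
miR-181b-5p: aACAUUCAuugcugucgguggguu
miR-181c-5p: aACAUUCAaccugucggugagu
miR-181d-5p: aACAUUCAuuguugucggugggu
miR-181a-1-3p: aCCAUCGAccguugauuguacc
miR-181c-3p: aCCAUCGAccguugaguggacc
miR-181a-2-3p: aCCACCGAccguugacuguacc

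All 4 of the 5p strands carry the seed ACAUUCA. Counting from 1 at the 5′ end, miR-181b-5p and miR-181d-5p differ by C12U over their 23 shared bases, and removing the G at position 11 of miR-181a-5p gives miR-181c-5p. miR-181a-5p and miR-181b-5p differ by A9U, C10U and A21G. Among the 3p strands, miR-181a-1-3p and miR-181c-3p share the seed CCAUCGA and differ by U16G and U19G. miR-181a-2-3p differs from miR-181a-1-3p by U5C, which changes the seed to CCACCGA, and by U16C. The rule for a read matching more than 1 of these names was not among the information used here, so the division between miR-181a-5p and miR-181c-5p, and between miR-181b-5p and miR-181d-5p, is uncertain.

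The 6 hairpins lie in 3 pairs. Mir181a-1 (chr1:137966455-137966541) and Mir181b-1 (chr1:137966639-137966718) are 97 bases apart on the plus strand, within an exon of the long noncoding RNA A430106G13Rik in GENCODE vM21. Mir181a-2 (chr2:38852735-38852810) and Mir181b-2 (chr2:38853830-38853918) are 1019 bases apart, on the strand opposite to an intron of Nr6a1, a nuclear receptor gene. Mir181d (chr8:84178716-84178787) and Mir181c (chr8:84178873-84178961) are 85 bases apart on the minus strand, in an annotated intron of Nanos3, which encodes an RNA-binding protein of germ cells. miR-181a-5p and miR-181b-5p can each come from either of 2 hairpins, so their reads do not show which locus was active, whereas the 3p names and the strands of Mir181c and Mir181d belong to 1 hairpin each.

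Libraries held 24350500 to 34896599 reads of known miRNAs. Levels are given as CPM, the usual depth-scaled read count, computed on miRNA reads with TMM scaling, and 955 miRNAs had enough reads for the edgeR quasi-likelihood test, 6 of the 7 members among them. Knockout 3 stood apart from the other libraries: 6 striated muscle miRNAs summed to 10513 CPM in it, against 458 and 2073 CPM in the other knockouts, 468 to 1641 CPM in transgene libraries and 221 to 1254 CPM in controls. The 4 tubule miRNAs chosen as markers of kidney (miR-192-5p, miR-194-5p, miR-204-5p and miR-30a-5p) were detected in every library and summed to 2723 to 3220 CPM in knockout, 3562 to 4529 CPM in transgene and 5066 to 8546 CPM in control libraries. Small RNA libraries hold no Drosha mRNA, and the genotypes were not checked.

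The member that stood furthest from the controls was miR-181d-5p. It was at 1949, 1382 and 1238 CPM in knockout libraries 1 to 3, at 1765, 1738 and 2065 CPM in transgene libraries 1 to 3 and at 2788, 2959 and 3202 CPM in controls 1 to 3, from 33955 to 88750 reads. Every knockout and every transgene library lay below every control. Of all 955 miRNAs tested, 15.6% lay below all controls in the knockout and 12% with the transgene. The means were 1523 ± 376 CPM in knockout, 1856 ± 182 CPM in transgene and 2983 ± 208 CPM in control kidneys (SD, n = 3 each). The difference from the control mean was -48.9% in the knockout and -37.8% with the transgene.

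For knockout against control the log2 fold change of miR-181d-5p was -0.97 (SE 0.21), the 8th smallest p-value of the 955 (unadjusted p = 0.00147), but it did not pass in edgeR's quasi-likelihood test (adjusted p = 0.108). The call depended on the tool and on 1 library: DESeq2 gave an adjusted p of 0.0130, and edgeR without knockout 1, the knockout library with the highest level, gave a log2 fold of -1.14 (adjusted p = 0.0432). These settings also called many other miRNAs: 104 of 939 with DESeq2 and 48 of 1001 without knockout 1, where the main fit called 0 of 955. For transgene against control the log2 fold was -0.68 (SE 0.21, unadjusted p = 0.0107, edgeR adjusted p = 0.529), and for knockout against transgene it was -0.29 (SE 0.21, edgeR adjusted p = 0.709), or -0.53 without knockout 1 and -0.13 without knockout 3. When the reads of miR-181d-5p were added to those of its near-identical neighbour miR-181b-5p, the sum had a log2 fold of -0.44 (SE 0.21, edgeR adjusted p = 0.218) for knockout against control and -0.58 (SE 0.21, edgeR adjusted p = 0.518) for transgene against control. The tubule miRNAs above summed lower in every knockout library than in any other library, whereas miR-181d-5p in knockout 1 lay above transgene 1 and transgene 2. The part of the tubule miRNAs in the miR-181d-5p values was not tested.

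**Figure D1:**
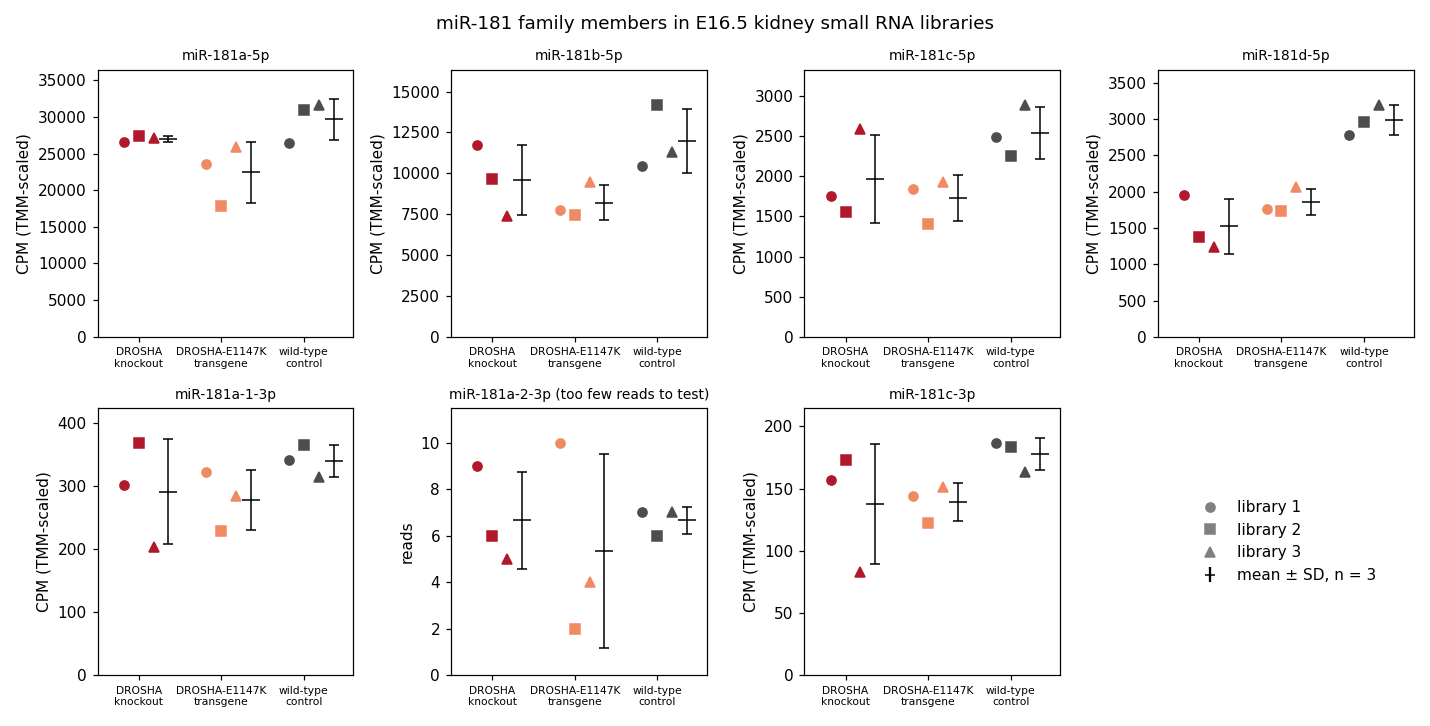
Level of each miR-181 member by library, in TMM-scaled CPM on the y axis (raw reads for miR-181a-2-3p), with knockout, transgene and control libraries from left to right; symbols mark libraries 1, 2 and 3 and the bars the mean ± SD of 3. miR-181d-5p lies between 1238 and 2065 CPM in all 6 DROSHA-altered libraries and between 2788 and 3202 CPM in the 3 controls.

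miR-181a-5p, the guide strand shared by both miR-181a hairpins, was the most abundant member and the 9th most abundant miRNA of the control kidneys. It was at 26535, 27353 and 27168 CPM in knockouts 1 to 3, at 23629, 17783 and 25837 CPM in transgene libraries 1 to 3 and at 26498, 30919 and 31684 CPM in controls 1 to 3. The knockout libraries overlapped with control 1, whereas all 3 transgene libraries lay below all controls. Means were 27019 ± 429 CPM in knockout, 22417 ± 4162 CPM in transgene and 29700.2 ± 2800 CPM in control kidneys (SD, n = 3 each).

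Against controls, miR-181a-5p had a log2 fold of -0.14 (SE 0.17, edgeR adjusted p = 0.649) in the knockout and -0.41 (SE 0.17, unadjusted p = 0.0391, edgeR adjusted p = 0.530) with the transgene. The transgene value was -0.19 without transgene 2, the lowest library. The knockout value was -0.04 without knockout 3, -0.08 without knockout 1, -0.09 without transgene 2 or transgene 3, -0.24 without control 1, and turned to 0.08 when libraries were scaled to their miRNA totals alone, a scaling that moved the median of all 955 miRNAs to 0.19. It was -0.02 with totals of all counted reads, and -0.69 with factors from DROSHA-independent miRNAs, which moved that median to -0.60. The transgene value was -0.19, -0.25 and -0.74 under these 3 scalings. Relative to the median of all miRNAs, the knockout value lay between -0.11 and -0.10 under the 5 scalings tried. The transgene value lay between -0.37 and -0.35. Summed with miR-181c-5p, miR-181a-5p was at a log2 fold of -0.16 (SE 0.17, edgeR adjusted p = 0.594) in the knockout and -0.43 (SE 0.17, edgeR adjusted p = 0.518) with the transgene.

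miR-181b-5p, also made from 2 hairpins, was at 11742, 9623 and 7405 CPM in knockouts 1 to 3, at 7752, 7419 and 9445 CPM in transgene libraries 1 to 3 and at 10475, 14206 and 11281 CPM in controls 1 to 3. Knockout 1 stood among the controls and the other knockouts below them, while the transgene libraries did not overlap with controls. Means were 9590.2 ± 2169 CPM in knockout, 8206 ± 1086 CPM in transgene and 11987 ± 1963 CPM in control kidneys (SD, n = 3 each). The log2 fold against controls was -0.32 (SE 0.22, edgeR adjusted p = 0.394) for the knockout and -0.55 (SE 0.22, unadjusted p = 0.0327, edgeR adjusted p = 0.529) for the transgene. The knockout value was -0.07 without knockout 3 and -0.21 without control 2.

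miR-181c-5p, the neighbour of miR-181d-5p on chromosome 8, did not follow it in every library. It was at 1754, 1556 and 2596 CPM in knockouts 1 to 3, at 1844, 1408 and 1936 CPM in transgene libraries 1 to 3 and at 2488, 2255 and 2896 CPM in controls 1 to 3. Knockout 3 had the highest miR-181c-5p of its group and the lowest miR-181d-5p. The log2 fold of miR-181c-5p against controls was -0.37 (SE 0.24, edgeR adjusted p = 0.382) for the knockout, with means of 1969 ± 552 CPM in knockout and 2547 ± 324 CPM in control kidneys (SD, n = 3 each). It was -0.56 (SE 0.24, unadjusted p = 0.0489, edgeR adjusted p = 0.530) for the transgene, at 1729.6 ± 282 CPM (SD, n = 3), or -0.36 without transgene 2. The 3 transgene libraries lay below all controls, and the knockouts overlapped with them through knockout 3.

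The 3p strands were far scarcer than their 5p partners. miR-181a-1-3p, the 3p arm of the chromosome 1 hairpin, was at 301, 368 and 202.5 CPM in knockouts 1 to 3, at 321, 228 and 284 CPM in transgene libraries 1 to 3 and at 340.5, 365 and 313 CPM in controls 1 to 3. Both altered groups overlapped with the controls. Means were 291 ± 83.5 CPM in knockout, 278 ± 47.1 CPM in transgene and 339.6 ± 25.8 CPM in control kidneys (SD, n = 3 each). The log2 fold was -0.22 (SE 0.27, edgeR adjusted p = 0.635) for the knockout and -0.29 (SE 0.27, edgeR adjusted p = 0.723) for the transgene. The knockout value turned to 0.08 without knockout 3 and was -0.46 without knockout 2, and the transgene value was -0.09 without transgene 2 and -0.46 without transgene 1.

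miR-181c-3p was at 157, 173 and 82.5 CPM in knockouts 1 to 3, at 144, 122 and 151 CPM in transgene libraries 1 to 3 and at 187, 184 and 163 CPM in controls 1 to 3. Means were 137 ± 48.2 CPM in knockout, 139 ± 15.3 CPM in transgene and 178 ± 12.9 CPM in control kidneys (SD, n = 3 each). The low knockout mean rested on knockout 3, since the log2 fold of -0.37 (SE 0.30, edgeR adjusted p = 0.469) was -0.01 without that library and -0.60 without knockout 2. The transgene libraries lay below all controls, with a log2 fold of -0.35 (SE 0.30, edgeR adjusted p = 0.687), or -0.20 without transgene 2.

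miR-181a-2-3p, the 3p arm of the chromosome 2 hairpin, had too few reads to be tested. It was counted 9, 6 and 5 times in knockouts 1 to 3, 10, 2 and 4 times in transgene libraries 1 to 3 and 7, 6 and 7 times in controls 1 to 3. Summed over a group this was 20 reads in knockout, 16 in transgene and 20 in control kidneys, with exact 95% Poisson intervals of 12.2 to 30.9, 9.15 to 26.0 and 12.2 to 30.9 reads that cover counting error only. The miR-181a-1-3p reads of the same libraries numbered 5595 to 10839. A difference between groups in miR-181a-2-3p was not detectable at this depth.

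Among the 6 members tested, 0 passed edgeR's adjusted threshold of 0.05 in any of the 3 comparisons, where 0% of all miRNAs were called for knockout against control, 0% for transgene against control and 0.105%, the single name miR-3067-5p, for knockout against transgene. That name, chosen after its values were seen, had 0 to 1 reads in knockout and 25 to 99 reads in transgene libraries. Its comparison kept 1 call without transgene 3 and had 0 without any other single library. For knockout against control, 1 of the 6 members had an unadjusted p under 0.05 and was lower, and 0 were higher. Of all miRNAs, 10.1% were lower and 15.6% higher at that threshold, 25.7% in all. The count of 1 was 2 without knockout 3 and 3 with factors from DROSHA-independent miRNAs. The knockout libraries lay below all controls for 1 of 6 members, against 15.6% of all miRNAs. The median log2 fold of the 6 was -0.35, beside -0.03 for all miRNAs, and all 6 values were negative, as were 51.1% of all.

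For transgene against control, 4 of the 6 members (the 5p strands) had an unadjusted p under 0.05 and were lower, and 0 were higher. Of all miRNAs, 3.56% were lower and 5.24% higher at that threshold, 8.8% in all. The count of 4 was not stable: it was 0 without transgene 2, 0 with libraries scaled to miRNA totals and 0 with all counted reads. It was 1 with DESeq2, with no filter on low counts, or without control 3, knockout 1 or transgene 3, and 2 without control 2 or transgene 1, with the replicate block or with only the 2 groups fitted. It was 3 with DESeq2 median-ratio factors, with DROSHA-independent factors, or without control 1, knockout 2 or knockout 3. With mature rows only it stayed at 4. The transgene libraries lay below all controls for 5 of 6 members, miR-181a-1-3p being the exception, against 12% of all miRNAs. That count also rested on TMM: scaled to miRNA totals or to all counted reads, 1 of 6 members, miR-181d-5p, lay below all controls, against 4.19% and 6.28% of all miRNAs. The median log2 fold was -0.48, beside -0.04 for all, and all 6 values were negative, as were 53.3% of all. The comparisons share the same 3 controls, so the sets of folds are not independent of each other. The members also share hairpins, transcripts and, for the 5p strands, most of their sequence.

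**Figure D2:**
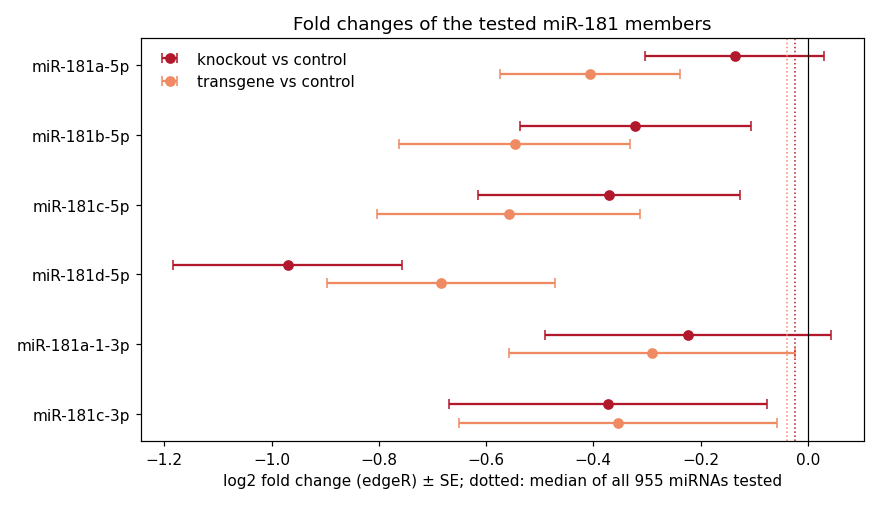
edgeR log2 fold change ± SE of the 6 tested members on the x axis, with knockout against control above transgene against control for each member; dotted lines mark the median of all 955 miRNAs tested, -0.03 for knockout and -0.04 for transgene. miR-181d-5p has the most negative value in each comparison, -0.97 and -0.68, and no value passed the adjusted threshold.

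Between knockout and transgene, 0 of the 6 members had an unadjusted p under 0.05, where 3.56% of all miRNAs were lower and 3.46% higher, 7.02% in all. Of the 6 log2 folds of knockout against transgene, 2 were negative, for miR-181d-5p (-0.29) and miR-181c-3p (-0.02), as were 46.9% of all, and the highest was 0.27 for miR-181a-5p (SE 0.17, edgeR adjusted p = 0.697). For miR-181a-5p the 3 knockout libraries lay above the 3 transgene libraries, which held for 4.4% of all miRNAs, but they overlapped with libraries scaled to miRNA totals or to all counted reads. For 0 members did they lie below, which held for 5.97%. The median over the members was 0.13, beside 0.05 for all. The value of miR-181a-5p was 0.11 without transgene 2.

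Together the 7 members took 38691 to 42439 CPM in knockout, 28699 to 39720 CPM in transgene and 42777 to 50889 CPM in control libraries. The mean sums were 40529 ± 1875 CPM, 34625 ± 5557 CPM and 47735 ± 4346 CPM in knockout, transgene and control kidneys (SD, n = 3 each). The difference from controls was -15.1% in the knockout and -27.5% with the transgene, and neither altered group overlapped with controls. The knockout gap was narrow, from 42439 CPM in the highest knockout to 42777 CPM in the lowest control. Of single miRNAs, 15.6% lay below all controls in the knockout and 12% with the transgene. The non-overlap depended on scaling: without TMM the family took 4.27% ± 0.403 of the miRNA reads in knockout, 3.65% ± 0.711 in transgene and 4.32% ± 0.369 in control libraries (SD, n = 3 each), and both altered groups overlapped with controls.

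A further row of the files, the Rfam family of miR-181 precursors, is not assigned to a member. It held 6721 to 9042 CPM in knockout, 5190 to 8738 CPM in transgene and 9006 to 9544 CPM in control libraries, on the same scale. These reads made up 16.7% ± 1.75 in knockout, 16.6% ± 1.36 in transgene and 16.3% ± 1.70 in control libraries (SD, n = 3 each) of the reads of the 7 members and the row together, and the group means differed by less than the SD within a group. With the row added, the difference of the sum from controls was -14.6% in the knockout and -27.0% with the transgene.

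The share of each member within the family does not depend on how libraries are scaled. It does depend on how reads were divided between near-identical names, such as miR-181b-5p and miR-181d-5p, which is uncertain. miR-181d-5p took 4.59%, 3.42% and 3.20% of the family's reads in knockouts 1 to 3, 4.98%, 6.06% and 5.20% in transgene libraries 1 to 3 and 6.52%, 5.81% and 6.46% in controls 1 to 3. The knockout libraries lay below all controls, while transgene 2 lay among them. miR-181a-5p took 66.8% ± 3.91 in knockout, 64.6% ± 2.38 in transgene and 62.2% ± 1.62 in control libraries, and miR-181b-5p took 23.5% ± 4.27, 23.8% ± 1.99 and 25.1% ± 2.62 in knockout, transgene and control libraries (SD, n = 3 each).

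**Figure D3:**
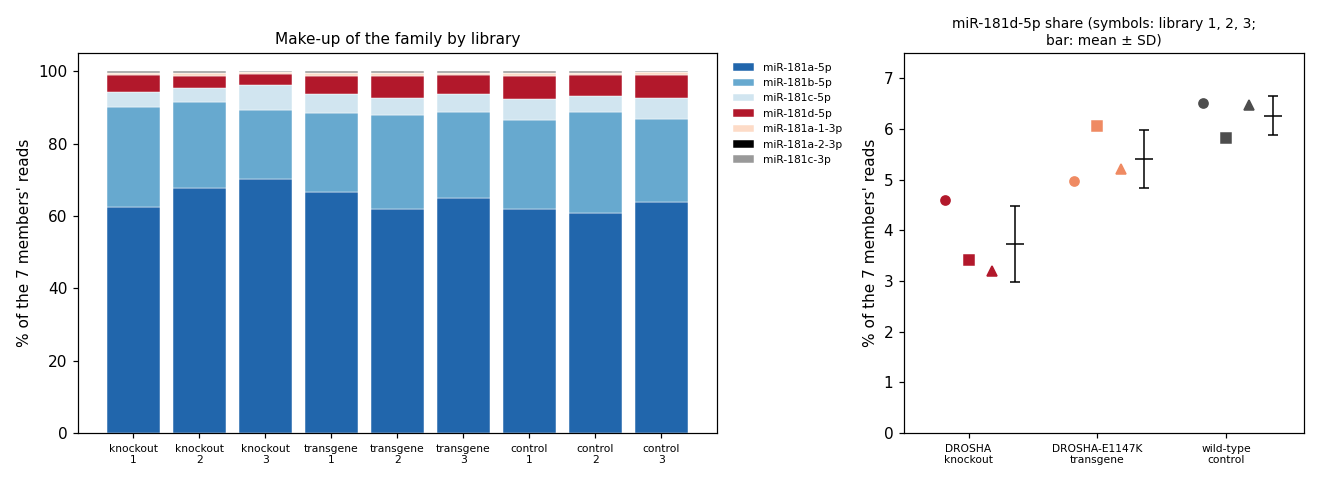
Left, percent of the 7 members' reads taken by each member in each library; right, the share of miR-181d-5p by library, with the mean ± SD of 3. miR-181a-5p and miR-181b-5p make up most reads in all 9 libraries, and miR-181d-5p takes 3.20% to 4.59% in knockout and 5.81% to 6.52% in control libraries.

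A further set of strands of the same hairpins is in the files but outside the list of members. miR-181d-3p, the partner strand of miR-181d-5p, was at 4.32, 5.74 and 2.64 CPM in knockouts 1 to 3, at 6.41, 4.62 and 6.23 CPM in transgene libraries 1 to 3 and at 7.48, 7.58 and 6.95 CPM in controls 1 to 3. With TMM both altered groups lay below all controls, which held for 15.6% of all miRNAs in the knockout and 12% with the transgene. Scaled to miRNA totals or to all counted reads, the transgene libraries overlapped with controls. The log2 fold was -0.79 (SE 0.32, unadjusted p = 0.0357, edgeR adjusted p = 0.178) for the knockout. For the transgene it was -0.35 (SE 0.32, edgeR adjusted p = 0.718). miR-181b-1-3p and miR-181b-2-3p, the 3p arms of the 2 miR-181b hairpins, had 17 to 43 and 16 to 81 reads per library. Their log2 folds were -0.27 (SE 0.32) and -0.54 (SE 0.44) for knockout against control and -0.04 (SE 0.31) and -0.03 (SE 0.43) for transgene against control, none past the adjusted threshold.

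Ratios of members within each library were tested by exact permutation, two-sided, for which groups of 3 cannot give a p below 0.1. The log2 ratio of miR-181c-5p to miR-181c-3p, strands of the same hairpin, was 3.48, 3.17 and 4.97 in knockouts 1 to 3, 3.67, 3.53 and 3.68 in transgene libraries 1 to 3 and 3.73, 3.62 and 4.15 in controls 1 to 3. Knockout 3 had the highest ratio of the 9 libraries. The mean differences were 0.04 for knockout against control (exact p = 1.0), -0.21 for transgene against control (exact p = 0.4) and 0.25 for knockout against transgene (exact p = 1.0), and the first was -0.51 and the last -0.30 without knockout 3. Leaving out single libraries gave -0.51 to 0.39 for the first. The transgene difference was -0.05 without control 3 and -0.31 without control 2.

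The log2 ratio of miR-181a-5p to miR-181b-5p was 1.52 ± 0.350 in knockout, 1.44 ± 0.174 in transgene and 1.32 ± 0.185 in control libraries (SD, n = 3 each), with exact p of 0.4 for knockout against control and 0.5 for transgene against control. The log2 ratio of miR-181a-1-3p to miR-181a-2-3p was 9.80, 10.34 and 9.87 in knockouts 1 to 3, 9.66, 11.27 and 10.69 in transgene libraries 1 to 3 and 10.40, 10.29 and 10.06 in controls 1 to 3, with exact p of 0.3 and 0.6 against controls. Adjusted over the 9 tests of ratios by Benjamini-Hochberg, p-values were 0.9 or 1.0.

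A ratio chosen after its values were seen, and therefore given with no test, was that of miR-181d-5p to miR-181c-5p, whose hairpins are neighbours. On the log2 scale it was 0.15, -0.17 and -1.07 in knockouts 1 to 3, -0.06, 0.30 and 0.09 in transgene libraries 1 to 3 and 0.16, 0.39 and 0.14 in controls 1 to 3. Knockout 3 was the lowest, and knockout 1 lay among the controls. The ratio of miR-181d-5p to miR-181b-5p was likewise chosen after values were seen and is given with no test. On the log2 scale it was -2.59, -2.80 and -2.58 in knockouts, -2.13, -2.09 and -2.19 in transgene libraries and -1.91, -2.26 and -1.82 in controls. The knockout libraries lay below all other libraries, but the division of reads between these names is uncertain.

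**Figure D4:**
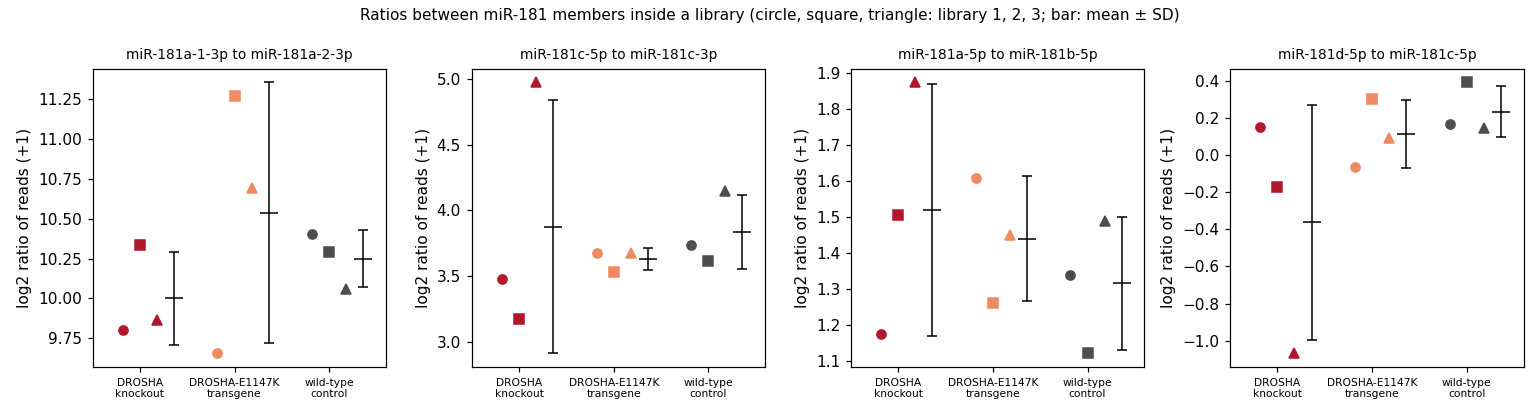
log2 ratio of reads of paired miR-181 members by library (y axes, with 1 read added to each count and not starting at 0), for knockout, transgene and control libraries from left to right, with the mean ± SD of 3. Knockout 3 has the highest ratio of miR-181c-5p to miR-181c-3p (4.97) and the lowest of miR-181d-5p to miR-181c-5p (-1.07).

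Over the 9 libraries, miR-181d-5p varied most among the tested members, with an SD of 0.48 log2 CPM, and miR-181a-5p least, with 0.24. Likeness between members was measured as the root mean square difference of their centred log2 CPM over the 9 libraries. The most alike were miR-181a-1-3p and miR-181c-3p at 0.13, from different chromosomes, which share a seed and differ by 2 bases. The least alike were miR-181c-5p and miR-181c-3p at 0.49, from the same hairpin. That value includes knockout 3, where the log2 ratio of this pair was 4.97, beside 3.17 to 4.15 in the other libraries. By the same measure the miRNAs outside the family closest to miR-181a-5p, of 459 candidates, were miR-34a-5p (0.098), a p53 target, miR-143-3p (0.123), a miRNA of smooth muscle and stroma, and miR-27a-3p (0.135).

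Of 13 lymphoid and vascular miRNAs, 0 passed the adjusted threshold against controls in either altered group. With an unadjusted p under 0.05, 4 were lower in the knockout (miR-10a-5p, miR-17-5p, miR-92a-3p and miR-222-3p) and 1 higher (miR-142a-5p). Of all miRNAs, 10.1% were lower and 15.6% higher there. With the transgene 0 were lower and 1, again miR-142a-5p, was higher, where 3.56% and 5.24% of all were. The median log2 fold was -0.22 for knockout and -0.26 for transgene. The list summed to 74386 to 124703 CPM in knockout, 107575 to 152451 CPM in transgene and 171416 to 183439 CPM in control libraries. In this sum both altered groups lay below all controls, but in the leukocyte and endothelial sums given below both overlapped with controls. Of single miRNAs, 15.6% lay below all controls in the knockout and 12% with the transgene, and no such share was computed for sums. The part of the list in the miR-181 values was not tested. The 5 leukocyte markers, all in that list, summed to 560 to 1420.2 CPM in knockout, 566 to 1297 CPM in transgene and 481 to 883 CPM in control libraries, and the 2 strands of the endothelial miR-126a to 34553 to 48793 CPM, 36660 to 45595 CPM and 45278 to 56513 CPM in knockout, transgene and control libraries. Of 10 strands from precursors that are processed without DROSHA, 9 were tested, 0 passed, and the median log2 fold was 0.67 for knockout and 0.03 for transgene against control, with 3 higher at an unadjusted p under 0.05 in the knockout and 1 with the transgene, where 15.6% and 5.24% of all miRNAs were.

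The remaining marker lists are given by their sums, and their part in the miR-181 values was not tested. The 5 ureteric miRNAs of the miR-200 family summed to 12884 to 30391 CPM in knockout, 22192 to 34060.0 CPM in transgene and 35403 to 40205 CPM in control libraries, lowest in knockout 3, with a median log2 fold against controls of -0.69 for knockout and -0.34 for transgene. The tubule medians were -1.11 and -0.60 for knockout and transgene. The 3 erythroid miRNAs summed to 70504 to 111689 CPM in knockout, 26874 to 79706 CPM in transgene and 21151 to 52250 CPM in control libraries. The 5 neural miRNAs overlapped between groups, at 2116 to 2278 CPM, 1912 to 3381 CPM and 2042 to 3454 CPM in knockout, transgene and control libraries. The 3 miRNAs of pancreas and liver ranged from 1107 to 11179 CPM in knockout, 4925 to 21598 CPM in transgene and 1180.4 to 12196 CPM in control libraries, and also overlapped. Singly, the log2 folds of miR-122-5p, miR-375-3p and miR-802-5p against controls were -0.65, 2.56 and -2.33 for knockout. They were 0.69, 3.43 and 3.41 for transgene, and none passed edgeR's adjusted threshold. No listed marker of these cell types was at 0 in any library.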

How the data were processed

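Small RNA was sequenced from 9 libraries of whole embryonic kidney, 3 per genotype, grouped by title. Per the labels' protocols, RNA was extracted with Trizol and libraries followed the BGI protocol. CASAVA 1.8, Bowtie2 and the build mm10 are listed, without roles, in the submitters' processing notes. The deposited counts are raw reads per small RNA name, and per the file headers they add up to 31743004 to 42609889 reads per library. The authors' deposited TPM is the count scaled to that total (largest gap from this 0.005) and was not tested.

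Mature and hairpin-class counts of a known mouse name were added (the miR-181 names had mature rows only). Counts were filtered with filterByExpr, scaled by TMM (factors 0.882 to 1.13) and fitted with edgeR 4.0.16 in R 4.3.3 over all 9 libraries with group as factor; Benjamini-Hochberg adjustment ran over all 955 miRNAs. SE is the fold divided by the square root of F. The fit was tested on simulated data. Ratios had 1 read added to each count. Poisson intervals cover counting error only, since the files give no molecular identifiers. Alternatives were DESeq2 1.42.0, other scalings, no low-count filter, a replicate block, 2-group fits, mature rows only, summed near-identical names and leaving out each library. The named miRNAs were the 7 members, the other miR-181 rows, and the 3 miRNAs most like miR-181a-5p with at least 10 CPM; the same search for miR-181a-2-3p was not made because it was too scarce. Members and lists were chosen with earlier results of these data known.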

Additional observations from a re-analysis of the deposited data

How the results depend on the processing

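DESeq2 called 104 miRNAs for knockout against control, 4 for transgene against control (miR-146b-5p, miR-375-3p, miR-667-5p and miR-7b-5p) and 3 for knockout against transgene (miR-205-5p, miR-3067-5p and miR-467h), where edgeR called 0, 0 and 1, with 245, 84 and 67 at an unadjusted p under 0.05. The cause was not tested. Leaving out a library gave 0 to 48 calls for knockout against control, the 48 without knockout 1, and 0 to 1 for knockout against transgene. The numbers shared by replicates did not pair the libraries (correlations of deviations from -0.302 to 0.102, with 2, 0 and 0 of 6 libraries closest to their own number in the 3 comparisons). A fit with the replicate block gave 0, 0 and 0 calls, and fits of only the 2 groups compared gave 0 for knockout against transgene, as did leaving out knockout 3 and transgene 2 together, a choice made after the data were seen.

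The fold of 2 summed names counts here as a value of each name. Of 354 alternative values of the 18 member results, 337 kept direction and side of the threshold, 15 changed sign and 2 newly passed, both for miR-181d-5p, knockout against control. That result was negative in all 20 alternatives, from -1.52 with factors from DROSHA-independent miRNAs to -0.44 summed with miR-181b-5p, with adjusted p from 0.0130 to 0.291. Relative to the median of all miRNAs it stayed between -0.94 and -0.92 under the 5 scalings. Totals of miRNA reads moved the median of all miRNAs to 0.19 and 0.18 for knockout and transgene against control, and DROSHA-independent factors moved it to -0.60 and -0.39. The lower share of names at unadjusted p under 0.05 was 39.2% for the knockout with TMM, 19.3% with miRNA totals, 27.1% with all counted reads and 89.1% with DROSHA-independent factors, and 40.5%, 6.06%, 12.9% and 76.3% for the transgene.

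Sign changes were as follows. For knockout against control, miR-181a-5p was at 0.076 with miRNA totals, and miR-181a-1-3p from -0.46 to 0.079 leaving out libraries and 0.086 without knockout 3 and transgene 2 together. For knockout against transgene, DROSHA-independent factors gave -0.076 for miR-181a-1-3p and -0.12 for miR-181c-5p. The sum of miR-181d-5p and the more abundant miR-181b-5p was at 0.15, which is a value of the sum and not of miR-181d-5p alone. Leaving out libraries gave -0.14 to 0.30 for miR-181a-1-3p, -0.039 to 0.33 for miR-181c-5p and -0.21 to 0.27 for miR-181c-3p, and leaving out knockout 3 and transgene 2 together gave -0.17 for miR-181c-5p and 0.18 for miR-181c-3p. Leaving out a library gave differences in log2 ratio of -0.077 to 0.73 for miR-181a-1-3p to miR-181a-2-3p (transgene against control), -0.51 to 0.39 and -0.30 to 0.60 for miR-181c-5p to miR-181c-3p (knockout against control and against transgene), and -0.099 to 0.25 for miR-181a-5p to miR-181b-5p (knockout against transgene). The other ratio differences kept their sign: -0.42 to -0.15 and -0.98 to -0.17 for miR-181a-1-3p to miR-181a-2-3p (knockout against control and against transgene), -0.31 to -0.048 for miR-181c-5p to miR-181c-3p (transgene against control), and 0.025 to 0.37 and 0.026 to 0.21 for miR-181a-5p to miR-181b-5p (knockout and transgene against control).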
